A study of Mus musculus with 2 samples.

Results

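The genes described here encode cargo and membrane proteins of platelet alpha granules and are Vwf, Cd9, Selp, Thbs1, Mmrn1, F5 and F13a1, 7 of the 21755 protein-coding genes of the GENCODE annotation of the mouse genome build mm10. They were chosen by name for what they encode, with earlier results of these data known, and Cd9 was kept because it lies next to Vwf. For each gene, every listed ATAC-seq peak in the gene body or within 50 kb of it was taken. ATAC-seq cuts open chromatin with a transposase, so that a peak marks a stretch of accessible DNA. The samples were 2 biological replicates of primary megakaryocytes, the bone marrow cells that shed platelets, from adult male C57BL/6J mice aged 5 to 6 weeks, with 50000 cells in each. They formed 1 group, with no second condition and no control sample, so every value below describes megakaryocyte preparations and no test between conditions was possible. Both replicates carry the same donor record, the health state is given as unknown, and the labels name neither the marker by which the cells were isolated nor their purity. A region counted as shared where peaks of both replicates overlapped. Its value is the one the authors deposited for its highest peak, read as fold enrichment over local background.

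Alpha granules are the secretory granules that megakaryocytes pack and hand on to platelets, which empty them when activated. They hold adhesive proteins such as von Willebrand factor and thrombospondin, clotting factors, growth factors and chemokines, and their membrane carries receptors such as P-selectin that reach the platelet surface on release. Genes of this kind are read out from promoters and from distal elements, both of which tend to lie in open chromatin when a gene is in use. An open region is not a measure of transcript or protein.

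The windows of the 7 genes held 57 distinct shared regions, of which 31 belonged to the Vwf and Cd9 locus on chromosome 6 and 17 to the Selp and F5 locus on chromosome 1. F13a1 had 6, Thbs1 had 3 and Mmrn1 had 0. Of the 57 regions, 44 were distal, that is more than 1 kb from any annotated transcript start, which is 77.2% against 70.1% of all 69539 shared regions. The DNA at the strongest distal region of each window is shown because it had the highest mean fold enrichment among the distal regions there. Each sequence is the plus strand of mm10 over 100 bases to each side of the summit, and capitals mark GATA letters (AGATAA and also TGATAA, or their reverse complements) or NF-E2 and AP-1 letters (TGAGTCA or its reverse complement).
Vwf, intron 6, chr6:125573317-125573517: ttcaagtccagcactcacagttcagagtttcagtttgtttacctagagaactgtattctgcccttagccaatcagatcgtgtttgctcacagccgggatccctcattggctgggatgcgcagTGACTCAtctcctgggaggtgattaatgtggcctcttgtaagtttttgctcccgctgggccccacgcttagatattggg
Cd9, intergenic, chr6:125411144-125411344: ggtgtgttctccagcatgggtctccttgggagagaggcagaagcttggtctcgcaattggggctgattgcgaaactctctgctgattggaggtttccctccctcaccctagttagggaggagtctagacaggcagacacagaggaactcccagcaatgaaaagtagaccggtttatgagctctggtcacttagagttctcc
Selp and F5, F5 intron 9, chr1:164184617-164184817: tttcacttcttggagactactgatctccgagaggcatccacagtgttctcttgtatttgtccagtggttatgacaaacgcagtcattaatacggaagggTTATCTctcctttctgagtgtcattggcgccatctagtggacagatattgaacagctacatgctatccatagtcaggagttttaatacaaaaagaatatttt
Thbs1, Fsip1 intron, chr2:118158197-118158397: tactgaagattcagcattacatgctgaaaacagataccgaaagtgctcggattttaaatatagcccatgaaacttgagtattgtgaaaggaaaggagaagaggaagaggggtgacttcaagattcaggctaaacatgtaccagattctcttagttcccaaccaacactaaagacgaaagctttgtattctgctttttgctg
F13a1, intergenic, chr13:37056809-37057009: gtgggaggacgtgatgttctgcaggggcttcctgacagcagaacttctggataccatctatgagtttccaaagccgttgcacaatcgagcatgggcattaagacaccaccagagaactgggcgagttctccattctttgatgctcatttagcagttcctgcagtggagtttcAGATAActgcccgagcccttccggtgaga
Of the sequences shown, that of Vwf held 1 NF-E2 and AP-1 match. The sequence that Selp and F5 have in common held 1 GATA match, and that of F13a1 held 1 GATA match. The Cd9 and Thbs1 sequences shown held neither. Matches in the other distal regions of the windows are counted further below. A match is a description of letters, not a site.

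**Figure D1:**
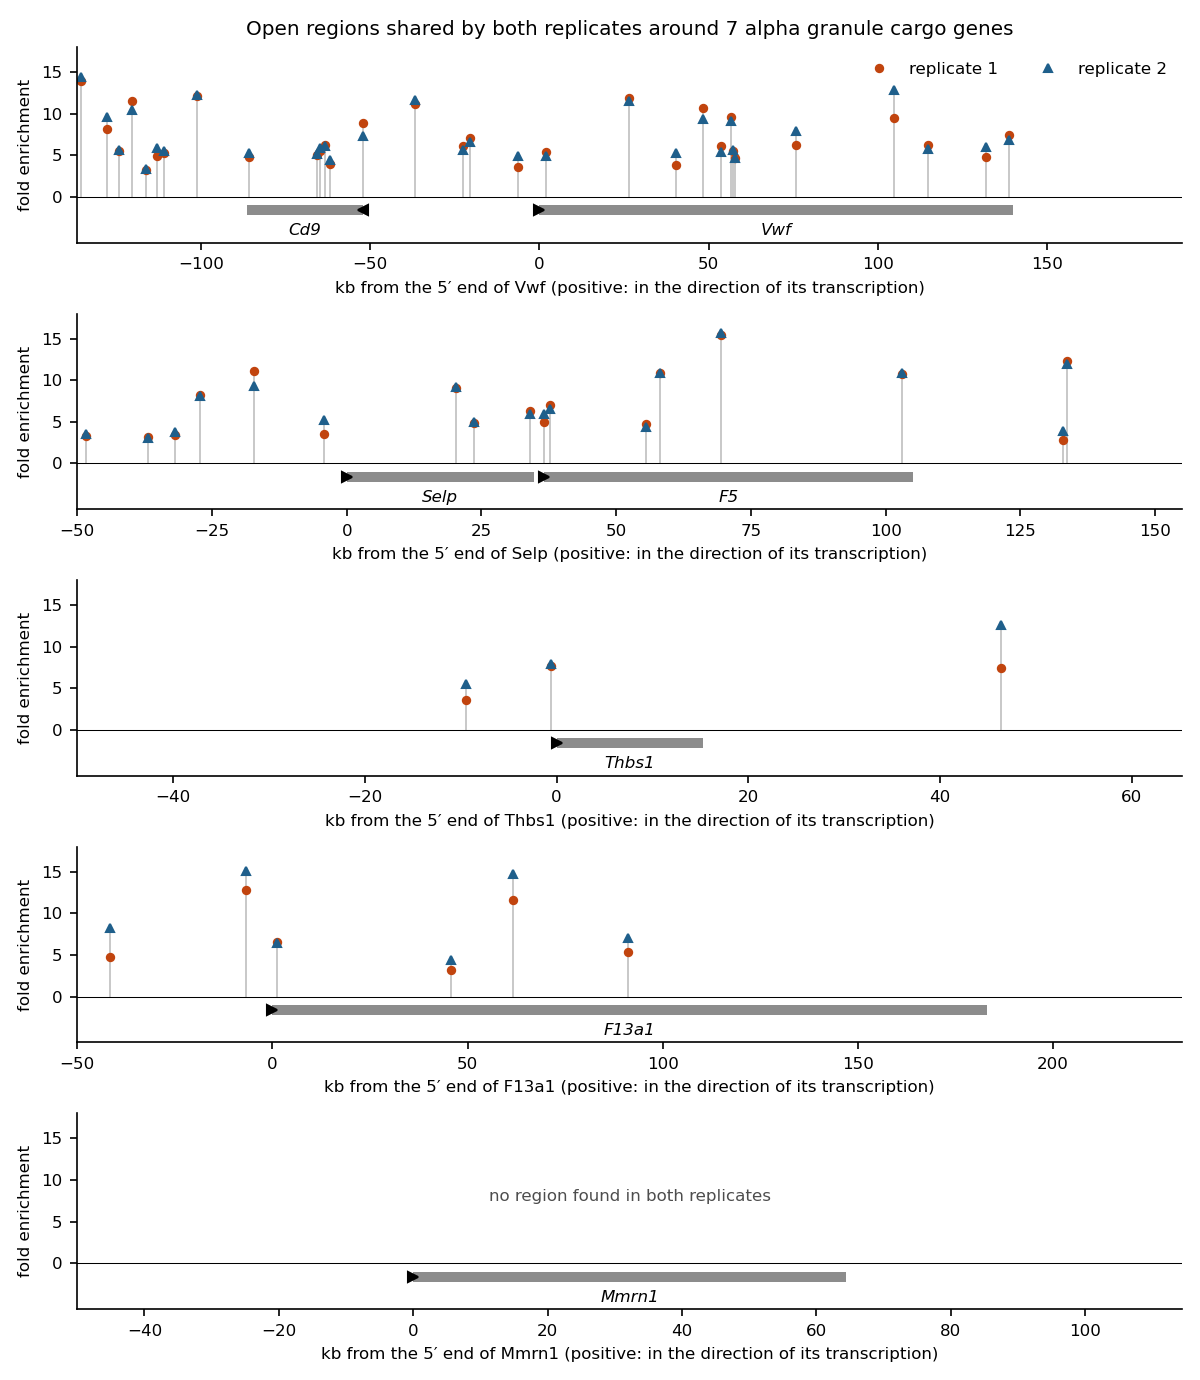
Shared open regions around the 7 genes, with the gene named under each axis setting the origin of its scale in kb (its 5′ end) and fold enrichment on the vertical axis, for replicate 1 (circles) and replicate 2 (triangles). Grey bars are gene bodies and arrowheads their 5′ ends. Regions crowd the Vwf and Cd9 locus (31) and the Selp and F5 locus (17), while Thbs1 has 3, F13a1 has 6 and Mmrn1 has none found in both replicates.

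As a whole the peak lists of the replicates were of like size. Replicate 1 had 79800 regions and replicate 2 had 81707, with median fold enrichments of 6.65 and 7.01. Read counts are not in the peak lists, so the sequencing depth of each sample is unknown. The labels of replicate 2 alone name the sequencing instruments, of 2 models. The cell type label was checked at promoters of marker genes, taken as open where a protein-coding transcript began at most 500 bp from a shared region, as 58.3% of all protein-coding genes had. Megakaryocyte markers were open at 3 of 12, Itga2b (13.9 and 13.05 fold in replicates 1 and 2), Itgb3 (8.08 and 7.16) and Pf4 (4.07 and 5.06), and the markers without a shared promoter region included Gp1ba, Gp1bb, Gp5, Gp6, Gp9, Treml1, Clec1b and Tubb1. Markers of monocytes and macrophages were open at 9 of 12, with mean fold enrichments of 5.64 (Csf1r) to 14.1 (Mertk), and lacked a region at C1qa, C1qb and Marco. Neutrophil markers were open at 8 of 10, with means of 4.91 (Ngp) to 11.8 (Mmp8), and lacked one at Elane and Fpr1. Endothelial markers were open at 3 of 12, Cdh5, Pecam1 and Esam, the last 2 of which platelets also carry, erythroid markers at 4 of 8, mesenchymal stromal markers at 2 of 8 and hepatocyte markers at 0 of 8. What other cell types add to the regions of the 7 genes was not tested, and in such bulk samples a region open in few cells and a region weakly open in many cannot be told apart.

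Vwf encodes von Willebrand factor, the large adhesive protein that tethers platelets to exposed collagen and carries factor VIII, and it is made in megakaryocytes and endothelial cells. The gene (ENSMUSG00000001930.17, chr6:125546774-125686679, plus strand) had 17 shared regions in its window, more than 92.8% of protein-coding genes have. Per 100 kb of window it had 7.09 regions, a density above that of 66.4% of genes. In the gene body, which takes up 140 kb of the 240-kb window, lay 13 of the 17 regions. The strongest was a 1377-bp region in intron 6, 26.6 kb from the 5′ end (chr6:125572333-125573709), with 11.9 fold enrichment in replicate 1 and 11.5 in replicate 2 (mean 11.7 ± 0.315, SD, n = 2) and 4 summits in each. It was wider than the median shared region (462 bp), and its replicates differed by little. A region 36.8 kb upstream of Vwf (chr6:125509715-125510168), which also lies 15.2 kb upstream of Cd9, had 11.2 and 11.6 fold in replicates 1 and 2. Intron 34 held a region 105 kb from the 5′ end (chr6:125651335-125651669) with 9.48 fold in replicate 1 and 12.9 in replicate 2 (mean 11.2 ± 2.41), so this one was higher in replicate 2.

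No shared region lay within 500 bp of the 5′ end of Vwf or of the start of any of its protein-coding transcripts. Its nearest shared region to the 5′ end was intronic, 1.84 kb downstream (chr6:125548490-125548706), with 5.33 and 4.94 fold in replicates 1 and 2. The start of the longest Vwf transcript, 6.17 kb into the gene, lay 4.24 kb from any shared region. GENCODE gives Vwf 10 transcript starts, and open regions covered starts of shorter non-coding transcripts inside the gene. At exon 14, 56.5 kb from the 5′ end, such a region (chr6:125603266-125603591) had 9.64 and 9.15 fold (mean 9.39 ± 0.348). Its neighbour in intron 14 (chr6:125603724-125604289) covered no start but lay 174 bp from the one that the exon 14 region covers. It had 5.54 and 5.67 fold. A region over a start in intron 50, 139 kb from the 5′ end (chr6:125685477-125685971), had 7.40 and 6.86. All 3 had close values in the replicates, so the gap at the 5′ end was found in a gene whose body was open in both.

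Cd9 encodes a tetraspanin, a membrane protein that organises receptors at the platelet surface and in granule membranes, and is transcribed away from Vwf, with 52.0 kb between the genes. The gene (ENSMUSG00000030342.8, chr6:125460266-125494791, minus strand) had the most shared regions of the 7, 18, with 13.4 per 100 kb, a density above that of 94.7% of genes. Only 6 of the 18 overlapped the gene body, and the rank depended on the window. With a 10-kb window Cd9 had 6 regions and Vwf 14. With a 100-kb window Cd9 had 26 and F5 had the most, 29. The windows of Cd9 and Vwf had 4 regions in common, all between the genes. The strongest region of the Cd9 window lay 83.5 kb from its 5′ end and 48.7 kb past its 3′ end (chr6:125410853-125411580), with 14.0 fold in replicate 1 and 14.5 in replicate 2 (mean 14.2 ± 0.337), higher than 92.0% of all shared regions. The gene whose start is nearest to it is Plekhg6. Another intergenic region, 49.2 kb from the 5′ end of Cd9 (chr6:125445295-125445881), had 12.1 and 12.3 fold. Both strong regions differed by little between replicates. The Cd9 promoter was open, with 8.88 fold in replicate 1 and 7.30 in replicate 2 (mean 8.09 ± 1.12) over 864 bp that cover the 5′ end and an exon of the neighbouring transcript Gm26728 (chr6:125494108-125494971).

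Thbs1 encodes thrombospondin 1, a trimeric adhesive protein released in quantity from alpha granules. The gene (ENSMUSG00000040152.8, chr2:118111876-118127133, plus strand) had few regions around it, 3 in a window of 115 kb, and 24.7% of genes have fewer. Its promoter was covered by a region of 1198 bp with 3 summits (chr2:118111094-118112291), with 7.74 fold in replicate 1 and 7.96 in replicate 2 (mean 7.85 ± 0.155). The start of the non-coding gene Gm13986 lies in the same region, so the accessibility there cannot be assigned to either gene. The strongest region, 46.4 kb from the 5′ end in an intron of Fsip1 (chr2:118158156-118158689), had 7.40 fold in replicate 1 and 12.6 in replicate 2 (mean 10.01 ± 3.69). A region 9.45 kb upstream in an exon of Gm13986 (chr2:118102322-118102587) had 3.55 fold in replicate 1 and 5.49 in replicate 2. The promoter was thus alike in the replicates while both distal regions were higher in replicate 2 by more than 1.5-fold.

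Selp encodes P-selectin, the alpha granule receptor that moves to the platelet surface and binds leukocytes through their ligand PSGL-1. The gene (ENSMUSG00000026580.16, chr1:164115264-164150026, plus strand) had 14 shared regions, 10.4 per 100 kb, a density above that of 85.3% of genes. None lay at its promoter. Replicate 2 alone had a region over the 5′ end (4.04 fold, chr1:164115106-164115452) and another near an internal start 31.1 kb downstream (4.26 fold, chr1:164146297-164146500). In replicate 1 no peak was listed at either place, and the authors' pooled list of replicated peaks held the internal one (4.35 fold) and none at the 5′ end. Of the regions outside F5, the strongest lay 17.1 kb upstream of Selp (chr1:164097958-164098981), with 11.1 fold in replicate 1 and 9.28 in replicate 2 (mean 10.2 ± 1.31).

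F5 encodes coagulation factor V, the cofactor with which factor Xa makes thrombin, and starts 1.81 kb past the end of Selp. The gene (ENSMUSG00000026579.8, chr1:164151838-164220277, plus strand) had 12 shared regions, 9 of which also lie in the Selp window, and 7.12 per 100 kb. Intron 9 held the strongest region of all 57 (chr1:164184157-164184857), with 15.5 fold in replicate 1 and 15.7 in replicate 2 (mean 15.6 ± 0.147), higher than 95.4% of all shared regions. It lies 32.9 kb from the 5′ end of F5 and 69.5 kb from that of Selp, and nothing in these data assigns it to one of them. In intron 3 a region (chr1:164173120-164173604) had 10.9 and 10.8 fold, and in intron 24 another (chr1:164217472-164218603) had 10.8 in both. The replicates differed less at these 3 regions than at most others of the 57, whose means ranged from 3.11 to 15.6 fold. At the F5 promoter (chr1:164151675-164152102) the values were lower, 4.96 fold in replicate 1 and 5.93 in replicate 2 (mean 5.45 ± 0.686), in a region that also overlaps an exon of Gm16548. The far end of the window reached the promoter of Slc19a2, a thiamine transporter gene, where a region (chr1:164248489-164249739) had 12.4 and 11.9 fold.

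Mmrn1 encodes multimerin 1, a large polymeric protein that binds factor V in alpha granules. The gene (ENSMUSG00000054641.10, chr6:60924976-60989378, plus strand) was the only one of the 7 without a shared region in its window of 164 kb, whereas 85.1% of protein-coding genes had at least 1 and 3250 genes (14.9%) had none. Replicate 1 alone had a region in an intron 10.7 kb from the 5′ end (5.04 fold, chr6:60935516-60935800), and replicate 2 had none in the window. In the authors' list of replicated peaks, whose values come from the pooled samples, the window held 3 intronic regions, at 6.71, 10.7 and 42.3 kb from the 5′ end, with pooled fold enrichments of 3.99, 5.98 and 3.82. None of these was at a transcript start. The nearest shared region lay 95.8 kb from the gene (chr6:60828365-60829173), with 5.40 and 4.94 fold in replicates 1 and 2.

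F13a1 encodes the catalytic A chain of factor XIII, the transglutaminase that cross-links fibrin, and in platelets much of it is found in the cytosol. It is expressed in macrophages as well as in megakaryocytes. The gene (ENSMUSG00000039109.16, chr13:36867178-37050244, minus strand) had 6 shared regions, 2.12 per 100 kb, and 27.9% of genes have a lower density. A region 6.67 kb upstream (chr13:37056488-37057111) had 12.8 fold in replicate 1 and 15.1 in replicate 2 (mean 13.9 ± 1.64). In intron 4, 61.7 kb from the 5′ end (chr13:36988396-36988935), the values were 11.6 fold in replicate 1 and 14.7 in replicate 2 (mean 13.2 ± 2.21). Farther upstream, 41.6 kb from the gene's 5′ end (chr13:37091541-37092170), a region had 4.74 fold in replicate 1 and 8.23 in replicate 2. All 3 were higher in replicate 2. The promoter region lay 0.751 kb inside the gene, at 3 annotated starts that include a protein-coding one (chr13:37049042-37049493), and had 6.58 fold in replicate 1 and 6.42 in replicate 2 (mean 6.50 ± 0.118). It was in neither of the shorter lists the authors made per sample by a threshold on the irreproducible discovery rate (IDR), a measure of how well the ranks of peaks repeat.

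Set side by side, an open promoter was found at 5 of the 7 genes by any transcript start, against 59.8% of all protein-coding genes, at 4 of 7 by starts of protein-coding transcripts (Cd9, Thbs1, F5 and F13a1), against 58.3%, and at 3 of 7 by the 5′ end alone (Cd9, Thbs1 and F5), against 54.4%. The count of 5 includes Vwf through its non-coding starts. The open promoters were weak. Their fold enrichments lay below those of 68.8% (Vwf), 79.3% (Cd9), 80.9% (Thbs1), 88.6% (F13a1) and 93.9% (F5) of all genes with an open promoter, whose median is 11.5. The strongest distal region had a mean of 10.01 fold for Thbs1, 11.7 for Vwf, 13.9 for F13a1 and 14.2 for Cd9. For Selp and F5, which have theirs in common, it was 15.6. These means exceed those of the promoters, but each is the highest of several regions, which favours it over a single promoter. The same comparison over all genes is not given. At Thbs1 the distal region was below the promoter in replicate 1 (7.40 against 7.74 fold) and above it in replicate 2 (12.6 against 7.96). Selp had no shared promoter region to compare. The counts of regions differed widely between the 7 genes, from 0 to 18. Their median was 12.0 against 7.0 over all genes (quartiles 3 and 11). The median density was 7.09 per 100 kb against 4.93. The 7 counts are not separate, since 9 regions count for both Selp and F5 and 4 for both Vwf and Cd9.

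**Figure D2:**
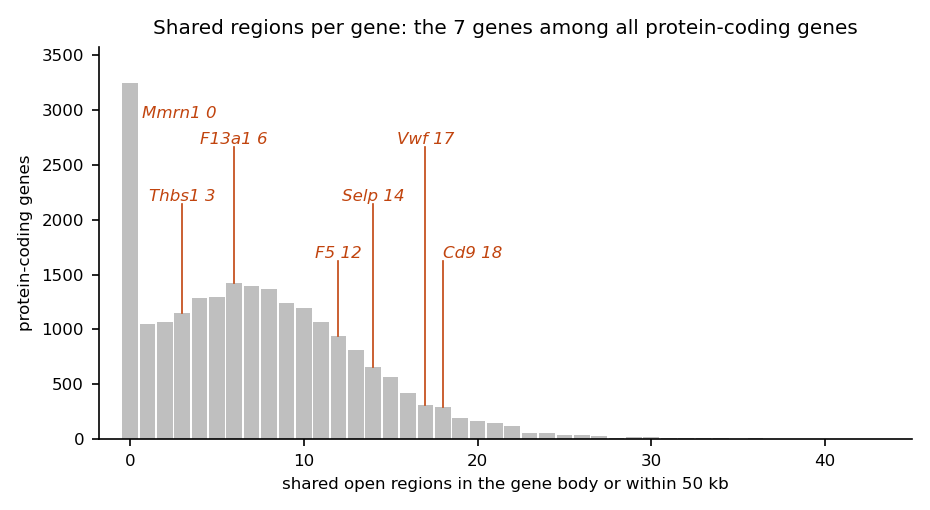
Number of protein-coding genes (vertical axis) by their number of shared open regions in the gene body or within 50 kb (horizontal axis). Labels mark the 7 genes, from Mmrn1 with 0, where 3250 genes also lie, to Vwf with 17 and Cd9 with 18, on the right flank of the distribution.

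Promoter sequences of 300 bases, from 250 before to 50 after the start, were matched by symbol for 5 of the 7 genes in RefSeq (build GRCm38.p6). Those that a shared region overlaps are shown 5′ to 3′ in the direction of transcription, since there the letters and the accessibility can be read together. Capitals mark ETS letters (GGAAGT) and RUNX letters (TGTGGT), each searched on both strands.
Cd9, chr6:125494711-125495010, minus strand: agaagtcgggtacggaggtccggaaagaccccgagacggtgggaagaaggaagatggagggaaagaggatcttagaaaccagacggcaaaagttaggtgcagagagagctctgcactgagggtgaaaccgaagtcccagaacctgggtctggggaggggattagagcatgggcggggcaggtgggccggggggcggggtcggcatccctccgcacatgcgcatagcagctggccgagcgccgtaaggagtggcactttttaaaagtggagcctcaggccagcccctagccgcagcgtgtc
F5, chr1:164151585-164151884, plus strand: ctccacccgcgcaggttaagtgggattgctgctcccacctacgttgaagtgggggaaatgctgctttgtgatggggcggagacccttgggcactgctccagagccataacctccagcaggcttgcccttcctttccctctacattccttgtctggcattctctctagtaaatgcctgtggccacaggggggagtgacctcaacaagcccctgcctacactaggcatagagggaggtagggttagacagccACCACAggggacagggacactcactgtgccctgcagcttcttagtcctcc
F13a1, chr13:37049164-37049463, minus strand: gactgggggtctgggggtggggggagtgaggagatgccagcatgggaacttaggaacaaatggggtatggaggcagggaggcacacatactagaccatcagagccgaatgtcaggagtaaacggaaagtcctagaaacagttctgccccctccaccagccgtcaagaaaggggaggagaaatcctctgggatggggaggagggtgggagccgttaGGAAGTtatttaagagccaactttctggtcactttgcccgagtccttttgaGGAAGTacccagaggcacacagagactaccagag
The F13a1 promoter held 2 ETS matches, and 23.9% of the 32619 RefSeq promoters hold at least 1. The F5 promoter held 1 RUNX match, on the reverse strand, and 16.6% of promoters hold one. Neither set of letters was in the Cd9 promoter. CpG dinucleotides, which are dense in the promoters of broadly used genes, were denser at Cd9 than at the other matched genes. Its promoter had an observed to expected CpG ratio of 0.689, above that of 69.9% of promoters. The ratio was 0.161 for F5, 0.240 for this F13a1 promoter, 0.202 for Selp and 0.206 for Mmrn1, all under the median of 0.387.

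The replicates found the regions of these genes about as often as regions elsewhere. Of 69 regions of replicate 1 in the windows, 85.5% overlapped a region of replicate 2, against 89.3% of all its regions. Of 72 regions of replicate 2, 80.6% overlapped one of replicate 1, against 86.2%. The 10 regions found only in replicate 1 had 2.79 to 5.80 fold and the 14 found only in replicate 2 had 2.72 to 5.76 fold. All lay below the median of the 57 shared regions in the same replicate (6.22 and 6.12). Of the 57 shared regions, 31 were in the IDR-thresholded lists of both samples, which is 54.4% against 53.3% of all shared regions, 5 were in 1 list and 21 in neither. Cd9 had 12 such regions of 18 and Vwf had 6 of 17. The median fold enrichment of the 57 regions was 6.22 in replicate 1 and 6.12 in replicate 2, below the medians over all shared regions of 7.30 and 7.74.

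Fold enrichments differed by at most 1.5-fold between replicates at 54 of the 57 regions, 94.7% against 96.4% of all shared regions. The other 3 were higher in replicate 2 by more than 1.5-fold, as 3.27% of all shared regions were, and belonged to Thbs1 (2 regions) and F13a1 (1 region). Replicate 2 was the higher at 35 of the 57 (61.4%), against 59.0% of all shared regions, with a median log2 ratio of replicate 2 to replicate 1 of 0.034 against 0.047. Thbs1 was higher in replicate 2 at 3 of 3 regions (median log2 ratio 0.63) and F13a1 at 5 of 6 (0.37). The remaining genes were higher there at 27 of 48, with a median of 0.015 and no region beyond 1.5-fold. Grouping Thbs1 with F13a1 was done after their values had been seen. Around monocyte and macrophage markers 72 of 123 regions (58.5%) were higher in replicate 2, with a median of 0.029. That share is near the 59.0% of all shared regions. Megakaryocyte markers had 57 of 114 (median -0.0039), neutrophil markers 61 of 123 (-0.0039) and endothelial markers 39 of 79 (-0.0091). Erythroid markers had 30 of 57 (0.0065), mesenchymal stromal markers 22 of 41 (0.022) and hepatocyte markers 14 of 33 (-0.016). Whether cell composition or sequencing goes with the Thbs1 and F13a1 values was not tested.

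**Figure D3:**
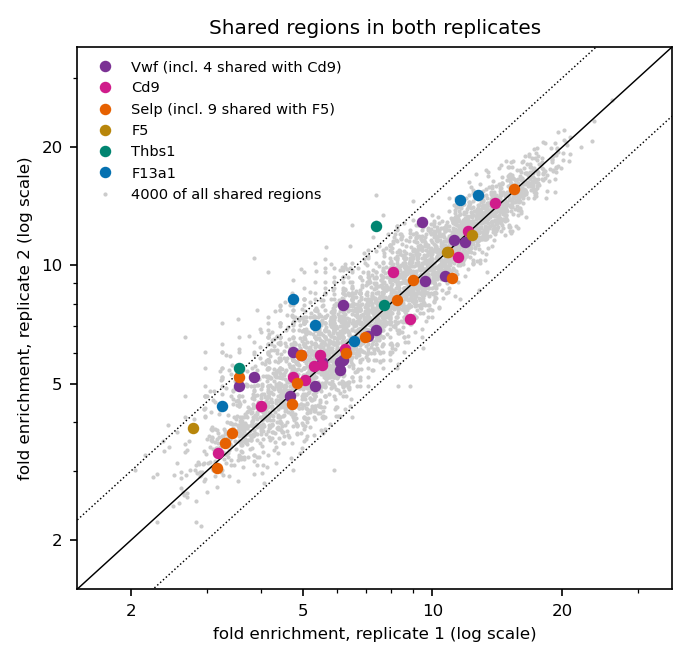
Fold enrichment of each shared region in replicate 1 (horizontal) and replicate 2 (vertical), both on log scales, for the 57 regions of the 7 genes in colour and 4000 of all shared regions in grey. The solid line marks equal values and the dotted lines a 1.5-fold difference. Coloured points beyond the upper dotted line belong to Thbs1 (2) and F13a1 (1), and none lies beyond the lower one.

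Letters of transcription factor motifs were counted within 100 bp of the summit, on both strands, in the 44 distal regions. GATA letters, those of the factor GATA1 that drives megakaryocyte and erythroid genes, were in 8 (18.2%), against 15.1% of all 48720 shared distal regions. ETS letters (GGAAGT), bound by FLI1 and its relatives, were in 16 (36.4%), against 39.6%, and RUNX letters (TGTGGT), bound by RUNX1, in 10 (22.7%), against 25.6%. NF-E2 and AP-1 letters (TGAGTCA), which the platelet factor NF-E2 shares with AP-1, were in 6 (13.6%), against 8.43%. TAL1 E-box letters (CAGATG) were in 6 (13.6%), against 16.6%, and E-box letters (CAGCTG) in 4 (9.09%), against 14.0%. KLF letters (CCACCC) were in 8 (18.2%), against 18.1%, and STAT letters (TTCNNNGAA) in 3 (6.82%), against 5.8%. The letters of the CTCF core were in 3 (6.82%), against 5.44%, the composite of an E-box and GATA, which can overlap the GATA letters, in 1 (2.27%), against 1.94%, the CArG box in 1 (2.27%), against 1.17%, and MEF2 in 0, against 0.54%. With 44 regions each match moves a share by 2.27 percentage points, and most of these shares lie within a few matches of the shares over all distal regions.

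GATA letters were in 8 of the 44 distal regions, a share near that of all distal regions (18.2% against 15.1%). They were in 1 distal region of Vwf alone (3.85 and 5.21 fold in replicates 1 and 2), 1 of Cd9 alone (4.01 and 4.39), 1 of Selp alone (3.44 and 3.74), 3 that Selp and F5 have in common and 2 of F13a1. Of these 8 regions, those above 10 fold were the intron 9 region of F5 and the region upstream of F13a1, both shown above. No GATA letters were in the 2 distal regions of Thbs1. The strongest F5 region also held a looser form of the CTCF letters, chosen after its sequence had been seen, which was in 4 of the 44 regions (9.09%), against 11.6% of all distal regions.

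**Figure D4:**
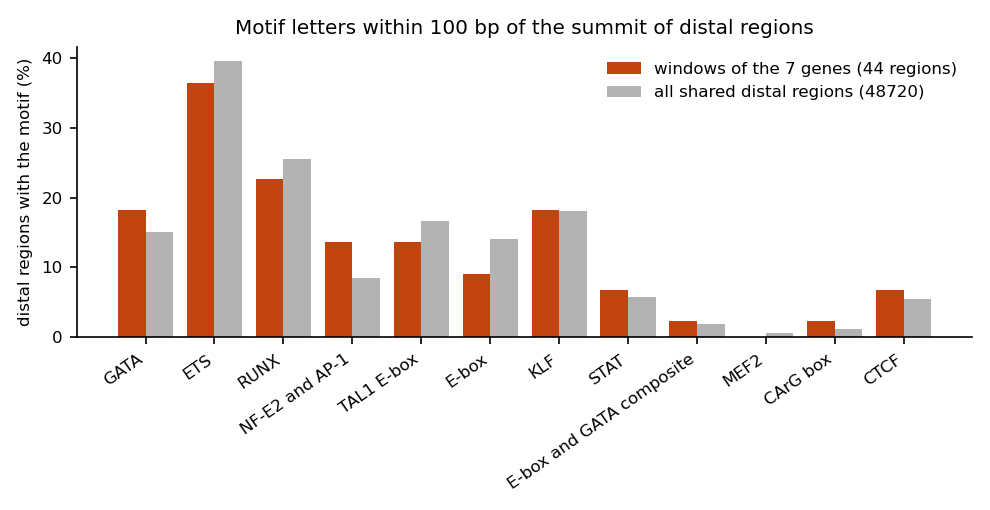
Share of distal shared regions, in percent, with each set of motif letters within 100 bp of the summit, for the 44 regions in the windows of the 7 genes (left bars) and all 48720 (right bars). GATA stands at 18.2% against 15.1% and NF-E2 and AP-1 at 13.6% against 8.43%, while ETS, RUNX and both E-boxes stand lower in the windows of the 7 genes.

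The other genes whose products are stored in alpha granules were taken from a list of 40. An open promoter by starts of protein-coding transcripts was found at 22 of the 40 (55.0%), against 58.3% of all genes. The strongest were F8, which encodes factor VIII (17.2 and 14.0 fold in replicates 1 and 2), Aplp2, an amyloid precursor-like protein (15.8 and 14.6), and Egf, the epidermal growth factor (13.7 and 15.2). No shared promoter region was found at the fibrinogen chain genes Fga, Fgb and Fgg, whose products platelets take up from plasma, nor at Ppbp and Clu. Their windows held a median of 8.0 shared regions, where the 7 genes had 12.0 and all genes 7.0. All 5 genes of alpha granule formation had an open promoter, among them Vps33b (15.6 and 16.1 fold), Vipas39 (13.5 and 12.8) and Nbeal2 (10.7 and 9.42), whose products sort cargo into the granule. Each of these 3 stood above every promoter of the 7 genes in both replicates. Among the 7 genes the highest was the Vwf region at exon 14 (9.64 and 9.15), which lies at a non-coding start. By starts of protein-coding transcripts the highest mean was at Cd9 (8.88 and 7.30). Vps16 (8.93 and 8.81 fold) and Gfi1b (6.26 and 5.92), the rest of the formation list, lay below the Vwf region. In both replicates Vps16 lay above Cd9 and Gfi1b below it.

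**Figure D5:**
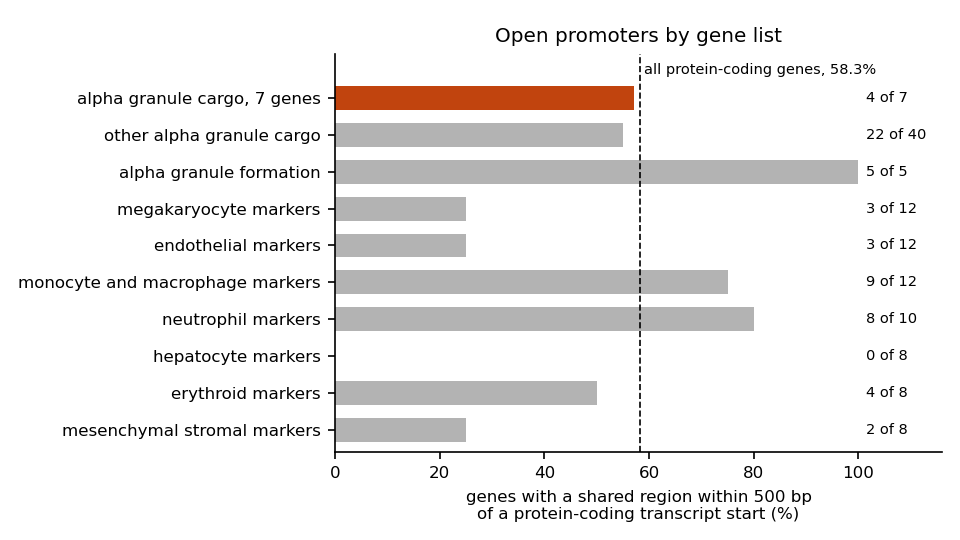
Percent of genes with a shared region within 500 bp of the start of a protein-coding transcript, for the 7 genes (4 of 7, top) and the other gene lists, with the count at the right. The dashed line is the share of all protein-coding genes (58.3%). Alpha granule formation (5 of 5), neutrophil (8 of 10) and monocyte and macrophage (9 of 12) lists lie above it, and megakaryocyte markers (3 of 12) below.

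The edge of the 50-kb window decided a few assignments. The shared regions just inside it lay 31.0 to 48.7 kb from the gene and the nearest outside it 51.8 to 95.8 kb. The Cd9 promoter lies 51.8 kb from Vwf and so did not count for Vwf, and the region upstream of Selp (11.1 and 9.28 fold in replicates 1 and 2) lies 52.9 kb from F5 and did not count for F5.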

How the data were processed

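Chromatin accessibility was measured by ATAC-seq in 2 samples of mouse megakaryocytes, 1 group by their labels. The authors deposited peak lists on mm10, called on each sample (pseudoreplicated peaks and IDR-thresholded peaks) or with values of the pooled samples (replicated peaks). The deposited column 7 was read, from the layout of the peak format, as the fold enrichment of a peak over local background, a ratio. Columns 8 and 9 of the deposited lists are −log10 p and −log10 q values, and no peak of the sample lists had a p-value above 0.00997. The aligner, peak caller and versions are not given in the sources used here. All value columns could be mapped, with 0 left over. Depth is unknown, which leaves counting error unstated.

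Overlapping peaks of a sample were merged, and regions of the replicates that overlapped by at least 1 bp were joined into shared regions on chromosomes 1 to 19 and X. The highest fold enrichment in each replicate was kept. Genes and transcript starts came from GENCODE M21, promoters from RefSeq (GRCm38.p6). Entries for Vwf and Thbs1 are not used here. Scripts ran in Python 3.11.15 with pandas 2.3.3 and numpy 2.4.6, and region merging was tested on simulated data. No test was run: with 1 group, values are given per replicate, as mean ± SD (n = 2) and beside all genes or regions. The labels do not say that the cells came from separate animals, so the SD may be technical.

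The members, marker lists and motifs were chosen with earlier results of these data known. Named regions were, by rule, every shared region at a promoter and the 3 strongest distal regions of each window. Named list genes were the 3 with the strongest promoters and at most 6 without one. Beyond these, marker genes were listed for the label check, and all genes of alpha granule formation were named. Alternatives were the IDR-thresholded lists, the replicated-peaks list, 50% reciprocal overlap, peaks of at least 4-fold, windows of 10 and 100 kb, other promoter and motif windows, and each replicate alone.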

Additional observations from a re-analysis of the deposited data

How the results depend on the processing

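Of 55 alternatives tried for the main values, 41 stayed within 1.5 times the main count or within the spread used for that value. The 57 shared regions became 31 with the IDR-thresholded lists, 37 with a 10-kb window and 89 with a 100-kb window, and each replicate alone gave 69 to 72. Open promoters were found at 5 of the 7 genes, at 3 with the 5′ end as the only start and at 5 to 6 in each replicate alone. The median fold enrichment of 6.19 became 9.11 with the IDR-thresholded lists, 5.58 with the replicated-peaks list, 6.85 with peaks of at least 4-fold, 6.48 with a 100-kb window and 5.54 to 5.72 in each replicate alone. The median log2 ratio of replicate 2 to replicate 1 (0.034) became 0.0173 with the IDR-thresholded lists and 0.0118 with peaks of at least 4-fold. The share of replicate 1 regions found in replicate 2 (85.5%) became 97.0% with the IDR-thresholded lists. GATA letters, in 18.2% of the distal regions, were in 43.2% with 200 bp to each side of the summit, where all distal regions had 31.4%, and in 16.1% to 18.2% in each replicate alone. The cause of these shifts was not tested, apart from the wider windows, which hold more sequence or more regions by construction. Starts of protein-coding transcripts (4 of 7 genes) and the looser CTCF letters were chosen after seeing the data. Per gene, 39 of 57 alternatives stayed within 1.5 times, and Mmrn1 had at most 3 regions in any of them. No paired analysis was possible because the samples form 1 group. With unknown depth, regions found in 1 replicate alone may have been missed in the other, and 2 samples give an SD of low precision.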
